A study of Mus musculus with 75 samples.

Results

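The step from E11.5 to E12.5 (E, embryonic day) in the female germ line of the mouse was examined by setting 2 libraries of E12.5 female germ cells against 2 libraries of E11.5 germ cells, 4 of the 75 libraries of the series, chosen by their labels alone. The cells came from ICR:C57BL/6=1:1 embryos carrying the transgene Dppa3-EGFP (genotype Dppa3-EGFPTg/0), in which a regulatory region of the germ cell gene Dppa3 drives a green fluorescent protein, and were sorted for green fluorescence. The 2 E12.5 male libraries have the same strain, genotype and sort and were used to test for sex differences at E12.5. A sex difference already present at E11.5 would give the same result in that test. The E11.5 libraries carry no sex label, so cells of 1 sex or of both may be in them. Each library was made by amplifying the 3' ends of transcripts from 1 ng of RNA, and values are in RPM, reads scaled to the total of each library. Reads were taken at 3' ends, so values are compared between libraries and not between genes. The labels do not say whether the libraries of a group came from separate embryos, so the p-values cover the spread between libraries alone, which may be technical.

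Germ cells lose most of the DNA methylation of their genome on the way to the gonad and within it. Germline genes that other cells keep methylated become active in them. In the ovary, bone morphogenetic protein (BMP) signals and retinoic acid act on the germ cells before they stop dividing and enter meiotic prophase. In the testis the germ cells pass through a phase of Nodal signalling and do not enter meiosis in the embryo.

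The estimated depth of the 4 libraries was 2.88 to 3.81 M reads, so 3 reads, taken as the smallest measured amount, stood at 0.787 to 1.04 RPM. The summed level of 13 germ cell markers was 6798 and 6903 RPM at E11.5 and 7466 and 7966 in E12.5 females. Dppa3, whose regulatory region drives the reporter, was at 2678 and 2794 RPM at E11.5 and at 2729 and 2887 in females. In 6 lists of markers of other cells, the summed levels reached at most 25.7 RPM at E11.5 and 20.0 in females. Supporting cell markers summed to 7.48 and 8.85 RPM at E11.5 and to 7.68 and 20.0 in females, where Nr5a1, Foxl2, Sox9, Amh and Dhh were listed at 0 in both libraries. Mesonephric epithelium markers went from between 17.3 and 18.6 RPM to between 4.17 and 5.08, and Pax8 (12.07 and 11.55 RPM, then 2.09 and 5.08) was the only marker of these 6 lists that passed the test between the stages (limma adjusted p = 0.00695). The part of these low levels in the results was not tested.

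A gene was called where its mean log2(RPM + 1) differed by at least 1 with an adjusted p below 0.05 in limma (Benjamini-Hochberg over 12567 genes tested, 22 embryo libraries sharing the estimate of the spread). Between E11.5 and E12.5 females, 8.48% of the genes tested were called: 634 were higher in females (5.04%) and 432 were lower (3.44%), and the median difference over all genes was 0.02. With 2 libraries a group, non-overlap is common: the libraries did not overlap for 56.8% of the genes tested between E11.5 and females, for 52.8% between females and males and for 55.2% between E11.5 and males. The calls rest on the spread shared with the other embryo groups, since a fit on the 4 libraries alone called 1 gene. Fewer cells of a type and less RNA per cell cannot be told apart in such bulk samples.

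**Figure D1:**
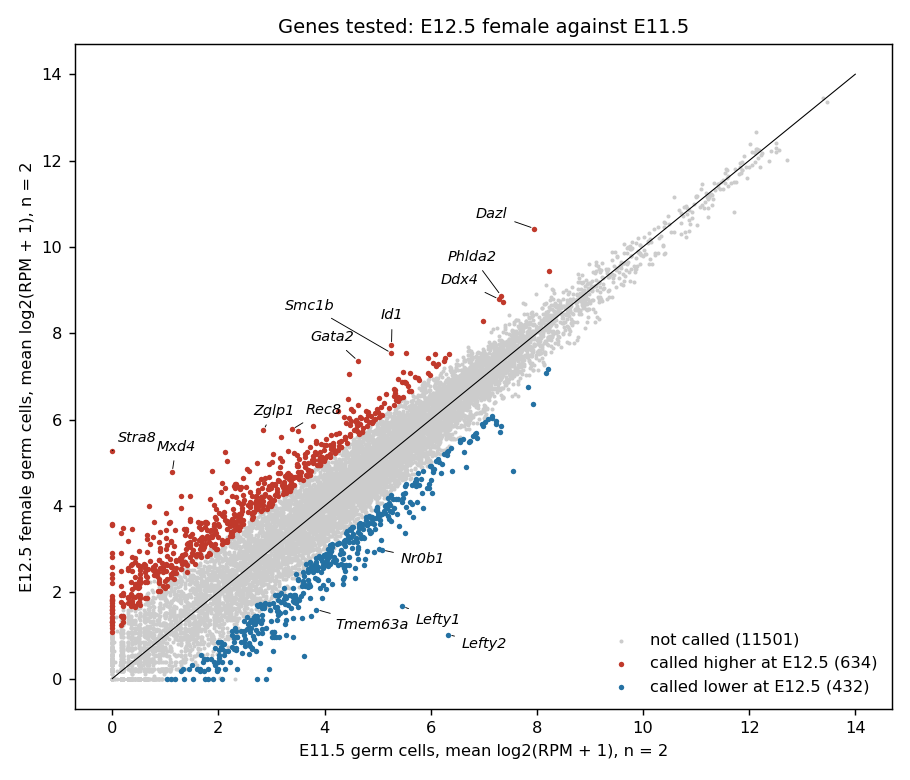
Each point is 1 of the 12567 genes tested, with its mean log2(RPM + 1) over 2 E11.5 libraries (horizontal) and over 2 E12.5 female libraries (vertical), and the line marks equal levels. Red points (634) were called higher and blue points (432) lower in E12.5 females. Stra8 stands on the left edge, since it was listed at 0 at E11.5, and Lefty1 and Lefty2 lie far below the line.

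Stra8, the retinoic acid responsive gene that germ cells need for meiotic entry (Entrez 20899, GRCm38 chromosome 6 from 34920163 to 34939344), was listed at 0 in both E11.5 libraries and at 41.4 and 34.7 RPM in E12.5 females. This is at least 39.5-fold higher than 3 reads in the shallower E11.5 library (log2 difference 5.28 ± 0.44 SE, limma adjusted p = 1.6e-08). In E12.5 males it was at 5.95 and 0.687 RPM, and females exceeded males by 3.51 (adjusted p = 9.31e-06). Rec8, the meiotic cohesin subunit that retinoic acid also raises, stood at 6.56 and 13.47 RPM at E11.5, at 50.4 and 57.0 in females and at 5.58 and 2.75 in males. Its rise in females was 2.38 ± 0.33 (adjusted p = 2.57e-05), and its male level was below that of E11.5. Zglp1, a GATA-like regulator of the oogenic programme (Entrez 100009600, chromosome 9 from 21062393 to 21067093), rose from 4.20 and 8.98 RPM to 59.8 and 46.9, against 10.4 and 9.61 in males (log2 difference to E11.5 2.90 ± 0.32, adjusted p = 1.81e-06). For all 3 genes the 2 female libraries lay above every E11.5 and male library. Over all genes tested, female libraries did not overlap those of E11.5 for 56.8% and those of males for 52.8%.

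The promoters of Stra8, Zglp1, the BMP target Id4 and the synaptonemal complex gene Sycp3 are shown because these 4 genes rose and are known as a retinoid-responsive gene, a regulator of oogenesis, a BMP target and a methylation-repressed germline gene. The sequences are RefSeq's on GRCm38.p6, from 250 bases before to 50 bases after a transcript start, and positions are counted with the start base as 0. Capitals mark CACGTG, the E-box bound by dimers of Max with Mga or Myc and by other helix-loop-helix factors, GGCGCC, a GC-rich element bound by BMP Smads, and AGGTCA, a half-site of the retinoic acid receptors, on either strand; a further GGCGCC of Stra8, 112 bases before its start, and an AGGTCA of Sycp3, 213 bases before, are left in lower case.
Stra8, chr6:34920698-34920997, plus strand: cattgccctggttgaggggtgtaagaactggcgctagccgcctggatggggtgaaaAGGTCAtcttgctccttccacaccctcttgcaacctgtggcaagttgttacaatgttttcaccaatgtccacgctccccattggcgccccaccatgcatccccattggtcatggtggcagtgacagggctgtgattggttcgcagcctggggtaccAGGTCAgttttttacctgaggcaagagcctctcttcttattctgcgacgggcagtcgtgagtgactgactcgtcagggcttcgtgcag
Zglp1, chr9:21067044-21067343, minus strand: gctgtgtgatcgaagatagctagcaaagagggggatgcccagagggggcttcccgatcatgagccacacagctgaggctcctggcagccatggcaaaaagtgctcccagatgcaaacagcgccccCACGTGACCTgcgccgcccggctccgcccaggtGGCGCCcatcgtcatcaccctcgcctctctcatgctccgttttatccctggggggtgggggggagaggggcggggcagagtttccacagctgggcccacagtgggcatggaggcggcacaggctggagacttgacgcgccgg
Id4, chr13:48260866-48261165, plus strand: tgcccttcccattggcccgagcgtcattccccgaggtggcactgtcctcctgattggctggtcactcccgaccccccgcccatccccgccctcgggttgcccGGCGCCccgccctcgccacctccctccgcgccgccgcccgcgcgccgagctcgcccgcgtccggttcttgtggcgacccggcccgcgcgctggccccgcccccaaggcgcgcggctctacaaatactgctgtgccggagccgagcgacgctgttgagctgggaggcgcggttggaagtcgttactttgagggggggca
Sycp3, chr10:88459337-88459636, plus strand: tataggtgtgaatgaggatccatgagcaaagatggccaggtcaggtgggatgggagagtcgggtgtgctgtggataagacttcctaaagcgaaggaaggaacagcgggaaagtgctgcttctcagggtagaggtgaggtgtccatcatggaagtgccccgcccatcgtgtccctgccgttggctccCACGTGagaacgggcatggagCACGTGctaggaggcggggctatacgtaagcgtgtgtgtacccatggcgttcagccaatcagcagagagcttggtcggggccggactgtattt

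In Stra8 the AGGTCA matches begin 194 and 38 bases before the start. Zglp1 holds CACGTG from 125 bases before its start, overlapped by AGGTCA on the other strand from 121 bases before, and GGCGCC from 92 bases before. Id4 holds GGCGCC from 148 bases before its start, and Sycp3 has CACGTG at 64 and at 43 bases before. Over all 32851 RefSeq promoters of this length, 7.15% hold CACGTG, 11.9% GGCGCC and 16.3% AGGTCA. A match is a run of letters and shows no binding.

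**Figure D2:**
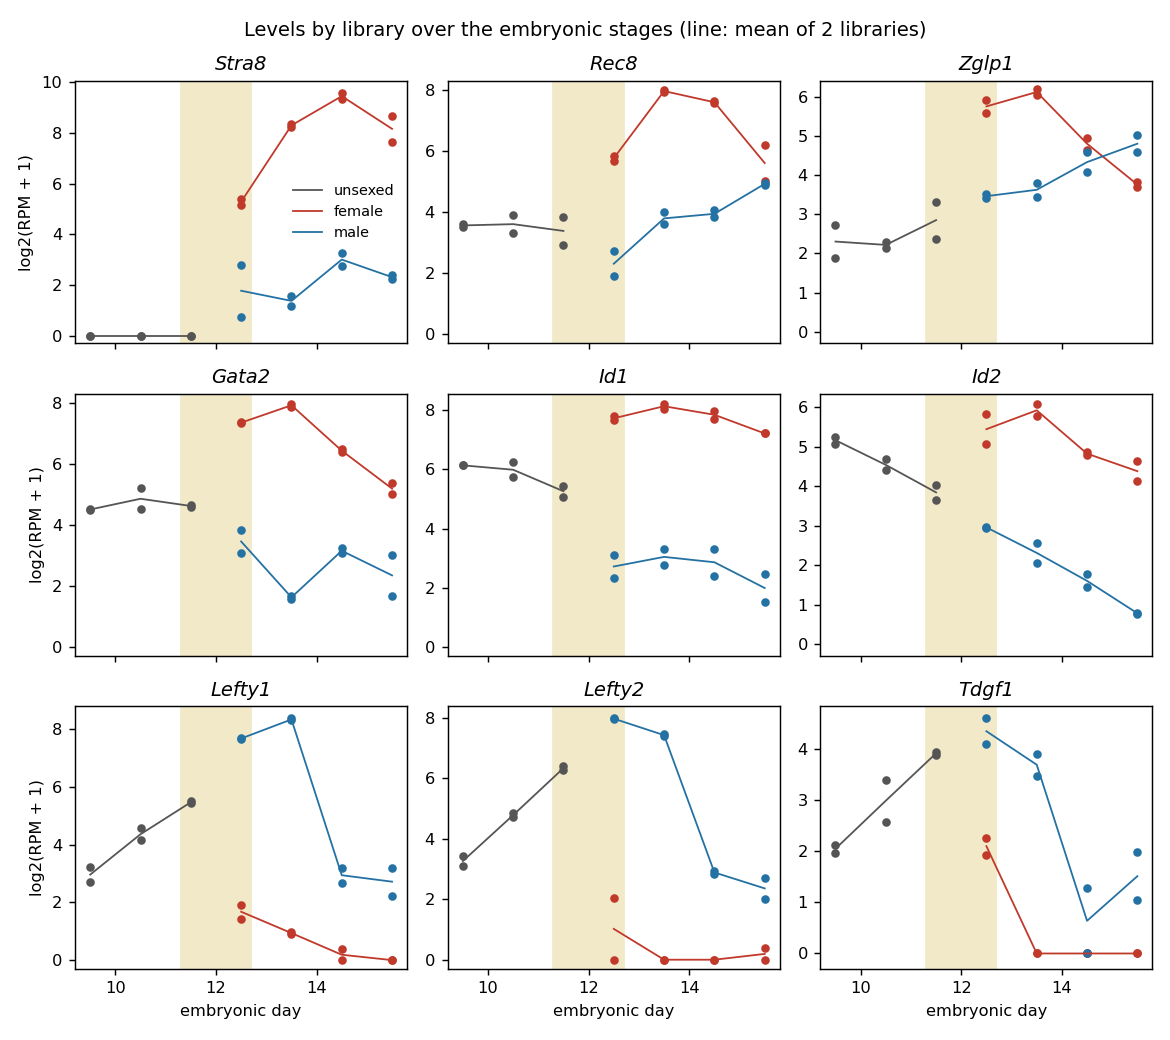
Levels of 9 genes as log2(RPM + 1) against embryonic day: points are libraries (2 per group), lines join group means, grey is unsexed, red female and blue male, and the shaded band marks E11.5 to E12.5. Stra8, Rec8, Zglp1, Gata2, Id1 and Id2 stand higher in E12.5 females than at E11.5. Lefty1 and Lefty2 stand lower than at E11.5 in E12.5 females and higher in E12.5 males. Tdgf1 stands lower in E12.5 females than at E11.5 or in E12.5 males.

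BMP ligands bind paired receptors whose signal is carried by Smad proteins to targets such as the Id genes, inhibitors of helix-loop-helix factors. Of 11 BMP targets tested, 4 rose in E12.5 females and none fell (median 0.55, against 0.02 over all genes, of which 5.04% rose). Gata2, a transcription factor of BMP-treated germ cells (Entrez 14461, chromosome 6 from 88193891 to 88207032), went from 23.4 and 24.1 RPM to 165 and 161, a log2 difference of 2.73 ± 0.31 (limma adjusted p = 2.89e-06). Id1 (Entrez 15901, chromosome 2 from 152736251 to 152737410) went from 42.6 and 32.7 RPM to 199.9 and 221 (2.46 ± 0.30, adjusted p = 4.77e-06). Id4 rose from 6.82 and 7.38 RPM to 27.8 and 35.3, and Id2 from 15.49 and 11.55 to 56.0 and 32.5. The libraries of the 2 stages did not overlap for these 4 genes, as for 56.8% of all genes tested.

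In E12.5 males 4 of the 11 BMP targets were called lower than at E11.5 and none higher, where 3.37% of all genes were lower: Id1, Gata2, Id3 and Msx2. Id1 stood at 4.09 and 7.55 RPM and Gata2 at 7.44 and 13.4 RPM in males, both below E11.5 (log2 differences -2.54 and -1.16). Id4 (7.81 and 6.87 RPM in males) and Id2 (6.70 and 6.87) were not called there. Between the sexes 6.53% of all genes tested were called, 3.77% higher and 2.75% lower in females, and among the 11 BMP targets 6 were, with the widest gap at Id1 (5.00, limma adjusted p = 3.73e-11). The other two that differed between the sexes had not been called since E11.5 in females: Id3 was at 335 and 348 RPM at E11.5, 413 and 369 in females and 113 and 120 in males. Msx2, a homeobox gene, was at 57.7 and 30.8 RPM at E11.5, 59.5 and 64.9 in females and 6.33 and 6.52 in males. For these 2 genes the sex difference at E12.5 lay in the male libraries, which stood below both other groups. Of the 4 BMP targets that rose in females 3 had a promoter in the table, and in each of them, Id2, Id4 and Gata2, it holds the BMP Smad element. In all, 4 of the 8 BMP targets tested that have a promoter in the table hold it.

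Among 13 ligands, receptors and Smad genes of the BMP pathway none was called since E11.5. The receptor gene Bmpr1a came nearest, at 64.8 and 57.1 RPM and then 112 and 108 (0.84, limma adjusted p = 0.000295), short of the fold required. Smad1 had 6.56 and 6.42 RPM at E11.5 and 2.43 and 2.82 in females (-1.05, adjusted p = 0.0677). Bmp2 was at 0.282 RPM or at 0 in the 4 libraries, and Bmp5 and Bmp8b did not reach the level for testing. Msx1as, an antisense transcript at the homeobox gene Msx1, rose from 3.67 and 1.92 RPM to 31.6 and 23.4 (2.93 ± 0.45, adjusted p = 7.38e-05). Msx1 itself stood at 0.525 and 0.321 RPM and then 1.39 and 2.82, and because the strand used in counting is not given in the sources used here, reads of the pair cannot be told apart.

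Retinoic acid is made from retinol by Aldh1a enzymes, cleared by Cyp26 enzymes and acts through receptors of the Rar and Rxr families. Of 11 genes of this machinery tested, 2 rose in females and none fell (median 0.05), where 5.04% of all genes rose and 3.44% fell. The retinoic acid carrier Crabp2 went from 5.77 and 7.70 RPM to 18.4 and 21.5 (1.44 ± 0.33, limma adjusted p = 0.00327) and was at 1.86 and 3.09 in males. The receptor gene Rxra went from 8.4 and 4.17 RPM to 16.3 and 16.1 (1.30, adjusted p = 0.00396; 0.87 and adjusted p = 0.102 without E11.5 replicate 2). Aldh1a2 was at 5.25 and 4.49 RPM and then 5.56 and 3.67, and the 3 Cyp26 genes were too low to be tested. Among 9 retinoic acid targets tested, Stra8 and Rec8 were the 2 that rose, beside the same 5.04% of all genes. The classical targets Rarb, Cyp26a1 and Dhrs3 were too low to be tested.

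Many germline genes rose in females, and none of those in the list below was called between the sexes. Of 28 germline genes known to be repressed by promoter methylation 12 rose and none fell (median 0.90), where 5.04% of all genes rose. Dazl, an RNA-binding protein that licenses germ cells for sexual development (Entrez 13164, chromosome 17 from 50279393 to 50293620), went from 246 and 248 RPM to 1386 and 1359 (2.47 ± 0.13, limma adjusted p = 1.33e-11). In males it was at 1245 and 1270 RPM, and the sexes differed by 0.13 (adjusted p = 0.591). Smc1b, a meiotic cohesin core subunit, went from 34.6 and 40.1 RPM to 193 and 178, against 132 and 108 in males. Mael, a nuage protein of transposon control, rose from 39.1 and 52.9 RPM to 202 and 167, and Sycp1, which forms the transverse filaments of the synaptonemal complex, from 5.51 and 1.92 to 20.5 and 20.0. In this list no gene was called between the sexes at E12.5, and in males 11 of the 28 rose and none fell since the same E11.5 libraries, where 6.93% of all genes were called, 3.56% higher and 3.37% lower. A sex difference under the threshold is not excluded by these calls: Smc1b was 0.63 higher in females (adjusted p = 0.00572) without reaching the fold required.

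The remaining members that rose in females had smaller differences, and 1 of them, Ddx4, is given with the piRNA genes below. Stk31, a tudor domain kinase of germ cells, went from 62.7 and 70.6 RPM to 192 and 174, and Hormad1, an axis protein of meiotic chromosomes, from 42.3 and 47.3 to 120 and 110. Brdt, a testis bromodomain protein, rose from 4.46 and 4.17 RPM to 22.3 and 17.8, and Sycp3, of the chromosome axis, from 14.2 and 8.02 to 42.8 and 48.0. Slc25a31, a germline ADP/ATP carrier, rose from 58.3 and 62.6 RPM to 130.4 and 138, and Mov10l1, a helicase of piRNA production, from 28.3 and 26.9 to 63.3 and 58.4. Tdrd1, a tudor protein of germ granules, was called (9.97 and 1.6 RPM, then 12.2 and 11; 1.23, limma adjusted p = 0.0442), but without E11.5 replicate 2 its difference was 0.20 (adjusted p = 0.806). The call was also lost without either female replicate (adjusted p = 0.155 and 0.123). Of the 16 not called, Rpl10l (161 and 170 RPM, then 169 and 165) and Pnldc1 (25.5 and 35, then 33.0 and 29.6) showed the smallest differences among genes above 20 RPM.

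CACGTG was present in the promoters of 10 of the 12 germline genes that rose and in 2 of the 12 with a promoter that were tested and not called, and Smc1b and Dazl are the 2 that rose without it. The promoters of the genes tested in this list held a median of 21 CpG pairs in 300 bases, against 7 over all promoters. These are descriptions of a list chosen for its known methylation, and no test was run on them.

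**Figure D3:**
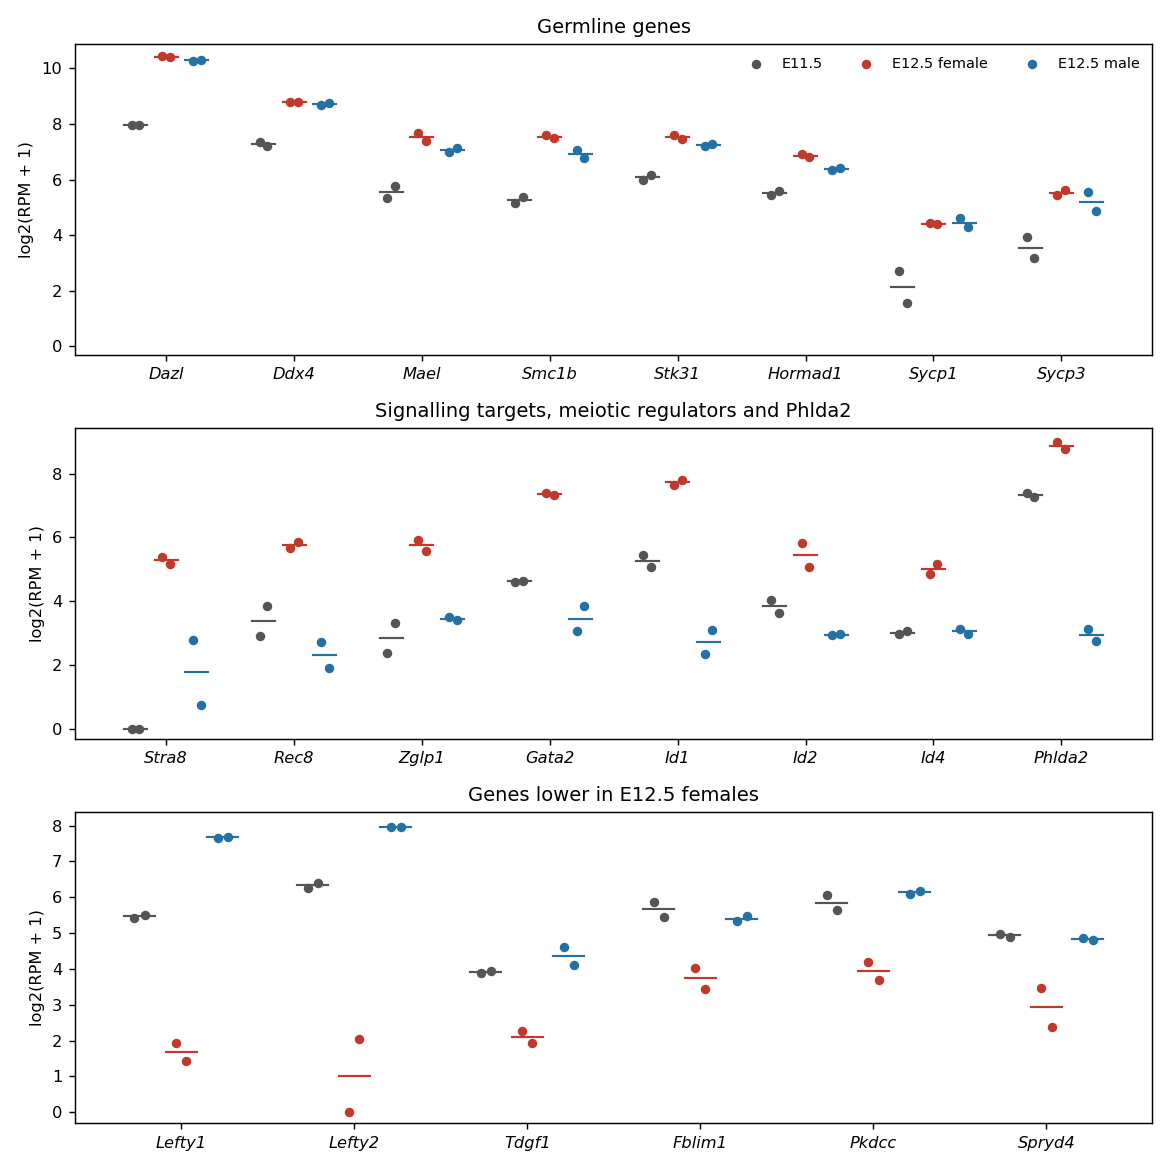
Levels of 22 genes as log2(RPM + 1) in E11.5 (grey), E12.5 female (red) and E12.5 male (blue) libraries: points are libraries, 2 per group, and bars are group means. The germline genes in the top panel stand close together in the 2 sexes, those of the middle panel are high in females, and those of the bottom panel are low in females, with Lefty1 and Lefty2 above E11.5 in males.

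Meiotic prophase is built on cohesins, an axis with the synaptonemal complex, and enzymes that break and repair DNA. Of 30 genes of meiotic prophase tested 11 rose in females and none fell (median 0.68), where 5.04% of all genes rose and 3.44% fell. Besides Stra8, Rec8, Smc1b, Dazl, Sycp1, Sycp3 and Hormad1 they were Syce3 and Tex12 of the synaptonemal complex, Dmc1 of strand exchange and the RNA helicase Ythdc2. Tex12 rose from 10.8 and 12.2 RPM to 37.9 and 31.1, and Dmc1 from 8.92 and 4.17 to 13.9 and 16.7. The genes of double-strand breaks were not called: Spo11, the enzyme that cuts, was at 9.45 and 6.42 RPM and then 9.73 and 6.78, and its partner Mei1 at 1.05 and 0 and then at 0 in both female libraries. Of the 30, 2 were called between the sexes at E12.5, Stra8 and Rec8, a share near the 6.53% of all genes. In males 10 of the 30 rose and 1, Rec8, fell since E11.5, where 3.56% of all genes rose and 3.37% fell.

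Piwi proteins and their partners silence transposons through small RNAs in germ granules. Of 18 such genes 7 rose and 1 fell (median 0.89), where 5.04% of all genes rose and 3.44% fell. Mael, Ddx4, Tdrd1 and Mov10l1 were also among the germline genes that rose. Ddx4, the helicase of germ granules (Entrez 13206, chromosome 13 from 112598333 to 112652633), went from 164 and 148 RPM to 438 and 442 (1.49 ± 0.12, limma adjusted p = 7.62e-09), with 406 and 432 in males. Tdrd7, a granule scaffold, went from 6.82 and 3.53 RPM to 25.7 and 28.2. Tdrd9, a helicase, was listed at 0 in both E11.5 libraries and stood at 2.43 and 2.26 RPM in females, near the level of a few reads. Piwil1 was the member that fell, from 3.15 and 1.6 RPM to 0.695 and 0; this call was lost without E11.5 replicate 1 (adjusted p = 0.226) or female replicate 2 (adjusted p = 0.252). Piwil2, the main Piwi protein of these cells, went from 60.6 and 61.0 RPM to 116 and 114, just short of the fold required (0.91, adjusted p = 0.000545).

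Nodal signals through an activin receptor with the co-receptor Tdgf1 (Cripto), and it induces its own antagonists Lefty1 and Lefty2. Of 12 Nodal pathway genes tested 3 fell and 3 rose in females (median -0.37), where 3.44% of all genes fell and 5.04% rose. Lefty2 was at 75.7 and 83.6 RPM at E11.5, at 0 and 3.11 in females and at 250.2 and 248 in males. Its fall in females was -5.31 ± 0.43 (log2, limma adjusted p = 1.14e-08). Lefty1 was at 41.9 and 44.4 RPM at E11.5, at 2.78 and 1.69 in females and at 200.4 and 205 in males (-3.79 ± 0.34, adjusted p = 6.37e-08). For both genes females lay below and males above E11.5, with no overlap between any of the 3 groups. Over all genes tested, non-overlap with E11.5 held for 56.8% in females and 55.2% in males, and for 52.8% between the sexes. Lefty1 and Lefty2 are close paralogs, and how reads shared by both were counted is not given in the sources used here.

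Tdgf1 itself fell from 13.9 and 14.4 RPM to 3.82 and 2.82 (-1.82 ± 0.42, limma adjusted p = 0.00381). Nodal had 17.1 and 13.2 RPM at E11.5 and 8.69 and 5.65 in females, a difference of -0.99 that did not pass (adjusted p = 0.07), and at 23.1 and 21.6 RPM in males it was called between the sexes (adjusted p = 0.00909). The 3 that rose were Cfc1 (Cryptic), a relative of Tdgf1, from 0.787 and 0.962 RPM to 5.91 and 8.47, and Pcsk6 and Furin, proteases that mature Nodal and other precursors. Pcsk6 rose by 1.38 (1.19 and adjusted p = 0.0638 without female replicate 2). Furin rose by 1.01 (adjusted p = 0.0208), with adjusted p = 0.116 without E11.5 replicate 1, 0.0573 without E11.5 replicate 2 and 0.126 without female replicate 2. The receptor gene Acvr1b and the Smads Smad2 and Smad3 were not called.

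A gene close to the Lefty pair fell as well. On chromosome 1 of GRCm38 the genes Lefty2 (180893108 to 180899107), Lefty1 (180935022 to 180938401) and Tmem63a (180942286 to 180975106) lie on the plus strand within 82.0 kb. Tmem63a, a mechanosensitive channel gene chosen after its values were seen, fell from 10.499 and 17.0 RPM to 2.09 and 1.98 (-2.25 ± 0.34, limma adjusted p = 6.34e-05), against 24.2 and 23 in males. All 3 were lower in females than at E11.5 and than in males. On either side of this interval 1 gene each was examined and not called: BC031781 had 56.7 and 49.1 RPM and then 38.2 and 39.2, and Nvl had 57.0 and 63.8 and then 75.8 and 61.0.

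**Figure D4:**
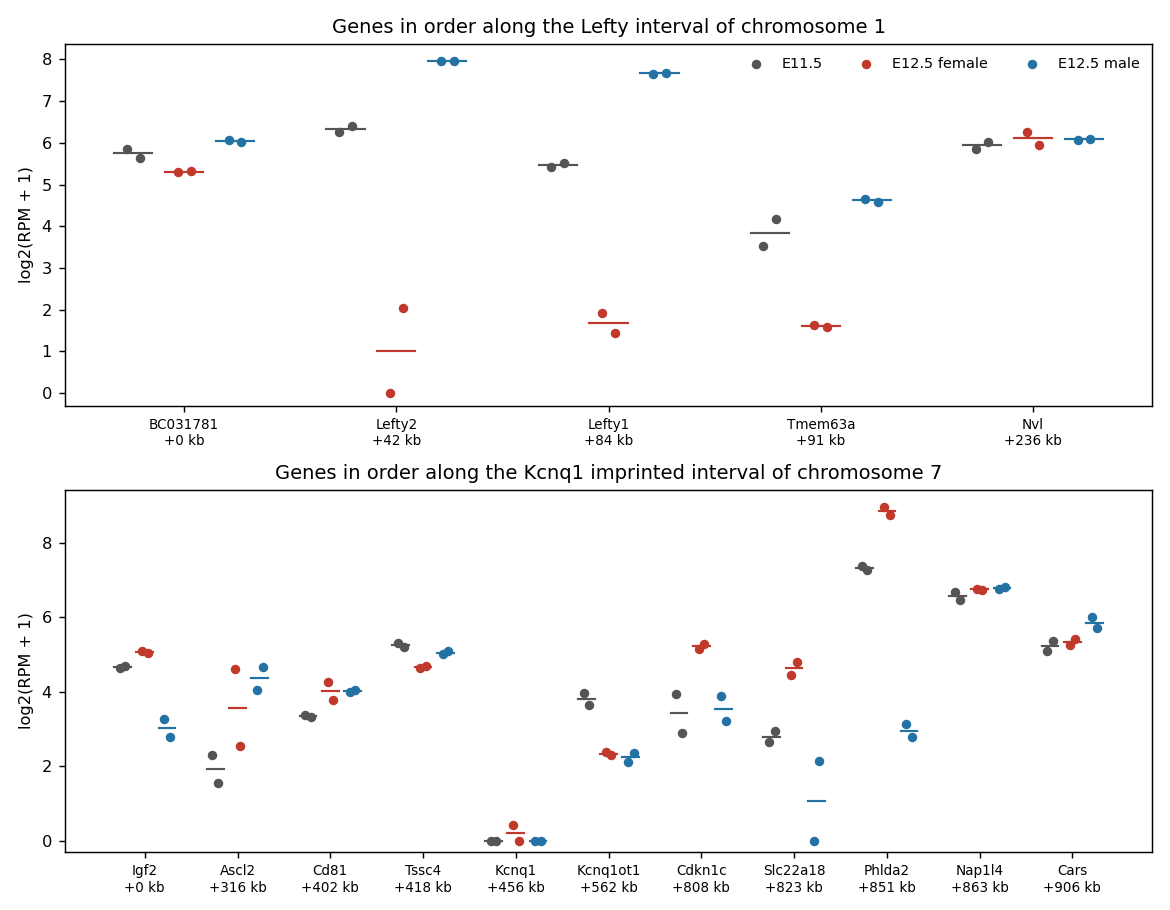
Levels as log2(RPM + 1) of genes in their order along an interval of chromosome 1 (top) and of chromosome 7 (bottom), with the distance from the first gene's start under each name: points are libraries, 2 per group (grey E11.5, red E12.5 female, blue E12.5 male), and bars are means. Lefty2, Lefty1 and Tmem63a are low in females while BC031781 and Nvl stay near the other groups, and Cdkn1c, Slc22a18 and Phlda2 are high in females beside Nap1l4 and Cars, which were not called.

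A second run of neighbours lay on distal chromosome 7, in an imprinted domain. In cells that carry imprints, genes there are read from 1 parental copy under the control of the antisense RNA Kcnq1ot1. Which copies were read in these germ cells was not tested. Cdkn1c (143458339 to 143461059), an inhibitor of cyclin-dependent kinases, rose from 14.4 and 6.42 RPM to 34.8 and 38.1 (1.81 ± 0.31, limma adjusted p = 0.000293). Slc22a18, a transporter gene, went from 5.25 and 6.74 RPM to 20.9 and 27.1, and Phlda2, a growth restraint gene known from the placenta, from 166 and 153 to 502 and 435. These 3 genes lie side by side within 44.8 kb. Phlda2 was at 7.81 and 5.84 RPM in males, the widest gap between the sexes among called genes named here that were higher in females (5.91, adjusted p = 2.54e-09). Its rise since E11.5 (1.55 ± 0.44, adjusted p = 0.0154) was lost when any 1 of the 4 libraries was left out, with adjusted p between 0.057 and 0.0879, and Slc22a18 (1.83, adjusted p = 0.00912) was lost without E11.5 replicate 1 (0.0705) or female replicate 2 (0.0777). Kcnq1ot1, which starts inside Kcnq1 and lies 162 kb from Cdkn1c, fell from 14.7 and 11.55 RPM to 4.17 and 3.95 (-1.47, adjusted p = 0.00691; 0.066 without E11.5 replicate 1), and to 3.35 and 4.12 in males. Nap1l4, Cars, Tssc4, Cd81 and Igf2 in the same interval were not called. Ascl2, which lies between Igf2 and Cd81, was called higher (1.64), with a mean of 20.0 RPM in males. Its call rests on female replicate 1, as given below.

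Over all genes 5.04% rose and 3.44% fell, and of 25 imprinted genes tested 6 rose and 1 fell in females (median 0.38). Besides the members of this domain they include Plagl1, a zinc finger regulator of imprinted genes, from 0.787 and 0.962 RPM to 11.8 and 7.62, with 0.372 and 0.687 in males. Ascl2, a placental factor, was called at 3.94 and 1.92 RPM and then 23.3 and 4.80, but 1 female library carries it: without female replicate 1 the difference was 0.61 (limma adjusted p = 0.463), and without E11.5 replicate 2 it was 1.26 (adjusted p = 0.193). Igf2 (24.1 and 24.7 RPM, then 33.4 and 31.9) did not pass since E11.5, and in males it was at 8.56 and 5.84.

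Pluripotency factors, which germ cells share with embryonic stem cells, kept most of their level over this day. Of 21 tested 1, Tdgf1, fell and none rose (median -0.30), where 3.44% of all genes fell and 5.04% rose. Pou5f1 (Oct4) was at 440 and 475 RPM and then 361 and 338 (-0.39, limma adjusted p = 0.0168), Nanog at 137 and 140 and then 122 and 118, and Sox2 at 317 and 260 and then 234 and 216. None of these 3 reached the fold required. For each the female libraries lay below both E11.5 libraries, and libraries did not overlap for 56.8% of all genes tested. Of 14 genes of germ cell specification 2 fell, where 3.44% of all genes did. Nanos3, an RNA-binding survival factor, went from 24.7 and 23.7 RPM to 9.04 and 13.3 (-1.07, adjusted p = 0.0145; 0.0744, 0.0623 and 0.138 without E11.5 replicate 1, E11.5 replicate 2 and female replicate 1). Sox15 went from 128 and 122 RPM to 67.8 and 51.4 (-1.06, adjusted p = 0.0378), and lost its call without any 1 of the 4 libraries (adjusted p 0.0617 to 0.225). Prdm1, Prdm14 and Tfap2c, the factors that set up the germ line, were not called.

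Most glycolysis genes were not called: 2 of 19 fell and none rose, where 3.44% of all genes fell, and the median difference was -0.61. Gapdh went from 3412 and 3347 RPM to 2020 and 1598 (-0.91, limma adjusted p = 1.05e-05) and Ldha, which turns pyruvate to lactate, from 82.2 and 87.6 to 49.7 and 42.1 (-0.88, adjusted p = 0.000799). The 2 that fell were Hk1 and Slc2a1. Hk1, the first kinase of the pathway, went from 45.4 and 44.6 RPM to 20.9 and 21.2 (-1.06, adjusted p = 0.0397), and the glucose transporter Slc2a1 from 6.82 and 5.13 to 2.09 and 2.54 (-1.07, adjusted p = 0.0378). Without any 1 of the 4 libraries, adjusted p lay between 0.128 and 0.139 for Hk1 and between 0.0707 and 0.201 for Slc2a1. Of 20 respiratory chain genes none was called (median -0.01).

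Among genes of the cell cycle, 2 rose and 2 fell of 23 genes of DNA replication and the G1/S step (median 0.01). Of 22 spindle and M phase genes 1 fell (median 0.04), where 5.04% of all genes rose and 3.44% fell. Ccnd1, a G1 cyclin, rose from 3.94 and 4.49 RPM to 19.8 and 21.5 (2.05 ± 0.42, limma adjusted p = 0.00137) and was at 3.35 and 5.15 in males. Cdk2 rose from 14.7 and 14.4 RPM to 31.6 and 36.7. The cyclins Ccnd2 and Ccne2 fell at levels under 4 RPM, and both lost their calls without E11.5 replicate 1 (adjusted p = 0.0999 and 0.1) or female replicate 2 (0.137 and 0.135); Ccne2 also lost its call without E11.5 replicate 2 (0.0563). Aurkb, a mitotic kinase, fell from 133 and 134 RPM to 60.8 and 66.3 (-1.06), at the edge of the fold required, and without female replicate 1 its value of -0.998 no longer met it. Mki67 had 149 and 151 RPM and then 166 and 203, and was not called. Of 9 inhibitors of cyclin-dependent kinases Cdkn1c and Cdkn2b rose, and Cdkn2b (0.525 and 0.642 RPM, then 2.78 and 2.54) lost its call without any 1 of the 4 libraries (adjusted p 0.121 to 0.152).

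**Figure D5:**
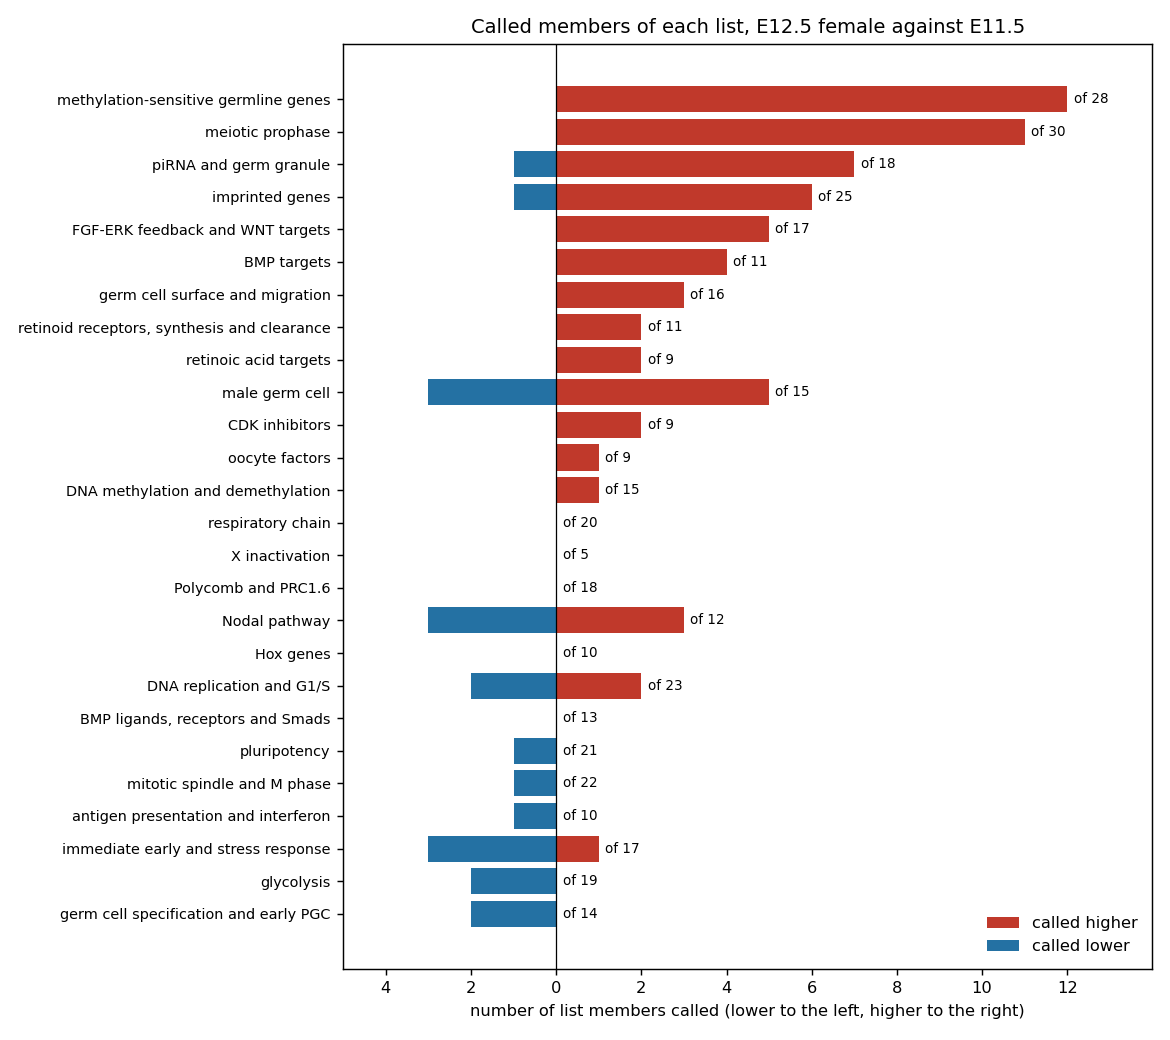
Number of members of each gene list called higher (red, to the right) or lower (blue, to the left) in E12.5 females against E11.5, with the number tested beside each bar. The germline, meiotic and piRNA lists extend to the right with 12 of 28, 11 of 30 and 7 of 18 members, and the Nodal list extends both ways with 3 lower and 3 higher of 12. The germline list shares called members with the meiotic and piRNA lists, so these bars are not separate results.

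Feedback genes of FGF signalling and targets of WNT signalling were taken as 1 list. Of 17 tested 5 rose and none fell, where 5.04% of all genes rose; the 5 are known as WNT targets, and the pathways were not tested against each other: Sp5, from 0 and 1.6 RPM to 16.3 and 13.8, Axin2, from 4.20 and 4.49 to 12.2 and 19.8, Tcf7, from 44.1 and 42.3 to 138 and 98.2, Nkd1 and Ccnd1. Sp5 rose to 21.2 and 20.9 RPM in males too, and Axin2 did not (7.44 and 1.37), with a sex difference of 1.89 (limma adjusted p = 0.00689). The call of Axin2 since E11.5 (adjusted p = 0.0128) was lost without E11.5 replicate 1 (0.0673), E11.5 replicate 2 (0.0561) or female replicate 2 (0.134). The FGF feedback genes Dusp6 (49.6 and 60.3 RPM, then 27.5 and 32.2), Etv5 (311 and 302, then 223 and 193) and Spry4 (18.9 and 16.7, then 6.61 and 10.2) were not called (adjusted p between 0.105 and 0.121). Dusp9, an X-linked phosphatase of ERK, rose from 19.2 and 23.1 RPM to 136 and 127 (2.59 ± 0.19, adjusted p = 2.6e-09), with 59.5 and 43.6 in males. Fgfr3, an FGF receptor, rose from 4.46 and 7.06 RPM to 37.5 and 25.7, and was at 7.07 and 8.93 in males.

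At the cell surface 3 of 16 genes rose and none fell, where 5.04% of all genes rose and 3.44% fell. Fut4, a fucosyltransferase gene, went from 0.525 and 0.962 RPM to 7.65 and 16.7, with 0.744 and 2.06 in males. Itga6, an integrin, rose from 4.20 and 4.49 RPM to 19.1 and 22.6, and to 21.2 and 14.8 in males. Prom1 (CD133) rose from 2.89 and 6.10 RPM to 15.6 and 9.88, and lost its call without E11.5 replicate 1 (limma adjusted p = 0.198) or female replicate 1 (0.142). Kit, the receptor for the survival factor of germ cells, was at 223 and 204 RPM and then 248 and 322, and was not called.

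Chromatin regulators gave few calls, where 8.48% of all genes were called. Of 15 genes of DNA methylation and its removal Uhrf1, which brings Dnmt1 to replicated DNA, was the 1 called, from 3.15 and 3.53 RPM to 12.9 and 10.7 (1.56 ± 0.29, limma adjusted p = 0.000607). Dnmt1 was at 210.3 and 183 RPM and then 262 and 219, and Tet1 at 90.3 and 107 and then 88.7 and 104, neither called. Of 18 Polycomb genes none was called; Rnf2 (84.8 and 79.2 RPM, then 139 and 153; 0.82, adjusted p = 3.01e-05) and Suz12 (104 and 103, then 178 and 206; 0.88) came closest to the fold required.

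Of the male germ cell list 5 of 15 genes rose and 3 fell in females, where 5.04% of all genes rose and 3.44% fell. Those that rose, Fgfr3, Tdrd9, Dmrt1, Tdrd1 and Piwil4, include germline genes shared by both sexes: Dmrt1, a DM-domain factor, went from 34.1 and 35 RPM to 88.7 and 103, and was at 79.6 and 90.3 in males. Those that fell were Lefty1, Lefty2 and Nanos3. Nanos2, the switch of the male fate, was at 0 in all 4 libraries and at 2.60 and 0.687 RPM in males.

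Other genes with large rises belong to none of the lists. Mxd4, a partner of Max that opposes Myc, rose from 2.62 and 0.321 RPM to 20.5 and 34.2 (3.65 ± 0.38, limma adjusted p = 6.3e-07), and in males it was at 10.0 and 9.27. Larp1b, an RNA-binding protein, rose from 4.20 and 2.89 RPM to 24.3 and 41.2, Tmem159 from 3.15 and 3.21 to 21.9 and 22, and the zinc finger gene Zbtb34 from 8.4 and 2.57 to 26.1 and 29.6. Calcoco2, an autophagy receptor, rose from 19.7 and 16.7 RPM to 74.1 and 70.6 and was at 1.86 and 4.12 in males, so the 2 sexes lay on opposite sides of E11.5. Among the genes that fell, Nr0b1 (Dax1), an X-linked orphan nuclear receptor, went from 27.6 and 39.1 RPM to 8.0 and 5.93 (-2.10 ± 0.45, adjusted p = 0.00211), with 11.9 and 17.2 in males. The iron exporter Slc40a1 (32.8 and 30.5 RPM, then 9.39 and 5.08) and the mitochondrial iron importer Slc25a37 (21.0 and 24.7, then 3.48 and 6.78) both fell.

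Ildr1, Rps6kl1, Ankrd16, Fblim1, Pkdcc, Lck, Hmg20b, Spryd4 and Mep1b also fell, by 1.86 to 2.25 on the log2 scale. The kinase Lck went from 42.8 and 39.5 RPM to 10.1 and 11, and to 7.07 and 14.4 in males. Pkdcc, a secreted kinase, went from 65.4 and 49.1 RPM to 17.4 and 11.9 and stayed at 67.4 and 71.1 in males, and Fblim1, a filamin binder, from 57.7 and 42.7 to 15.3 and 9.88, with 39.4 and 43.3 in males. The call of Mep1b was lost without E11.5 replicate 1 (limma adjusted p = 0.057). Hesx1 and Notch3, which had wide sex differences at E12.5, were not called since E11.5 in females: Hesx1 was at 2.10 and 0 RPM and then 0 and 1.13, against 21.2 and 29.5 in males.

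Genes of the X chromosome stood slightly above the others. The 534 X-linked genes tested had a median difference of 0.18, against 0.01 over 11647 autosomal genes, and 51 were called higher and 15 lower (9.55% and 2.81%, against 4.89% and 3.49% of autosomal genes). Female germ cells reactivate their second X chromosome during this period, and males have 1. Between the sexes at E12.5 the median of the X-linked genes was 0.24 and that of the autosomal genes near 0, and from E11.5 to E12.5 males the X-linked median was -0.03. Ddx3x went from 298 and 329 RPM to 500.3 and 522 (0.70, limma adjusted p = 4e-05) and Eif2s3x from 153 and 142 to 209 and 208, with 294 and 318, and 142 and 146 in males. Xist, the RNA that silences the X chromosome, was at 0.787 and 1.6 RPM at E11.5, at 0.348 and 0 in females and at 0 in males. Because the E11.5 libraries carry no sex label, a change with stage and a difference in the share of female cells cannot be told apart for these genes.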

How the data were processed

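The authors' deposited table gives, for each gene and library, a signal in RPM (reads scaled to the library's total), with 96 spike-in rows on the same scale that stayed out of every test. The submitters' processing notes name TopHat 1.4.1, Cufflinks 2.2.0, Bowtie 1.0.1, cutadapt 1.11 and the build mm10; strand use and the treatment of shared reads are not given in the sources used here. All columns were matched to samples by title. Depth was estimated from the RPM worth of 1 read: in the embryo libraries 88.5 to 92.1% of low values were whole reads within 0.05 reads, so no test on reads was run. The 759 values between 0 and 0.001 RPM were treated as 0. Floors cover counting error only, and their depths are estimates.

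Genes with at least 5 RPM in at least 2 of the 22 embryo libraries (12567 of 26218) were fitted as log2(RPM + 1), which understates the change of low genes, with a mean for each group (R 4.3.3, limma 3.58.1: lmFit, eBayes with trend, 11 residual degrees of freedom). E12.5 females were compared with E11.5, and with E12.5 males as the test of a sex difference at E12.5; males against E11.5 share the E11.5 libraries and are given side by side only. The code was tested on simulated data. Coordinates and promoters are RefSeq's on GRCm38.p6, the build called mm10 (24619 genes matched), and gene strands are GENCODE's, matched by gene name. A promoter list counts a gene where any of its promoters holds the motif.

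Named genes are the 15 largest called differences each way whose higher group averages at least 20 RPM, with no overlap between the 4 libraries and no predicted name, the 5 largest each way between the sexes, up to 4 called members each way in each of 27 lists, Stra8, and uncalled members beside a described count; further called list members are named to complete a count. Some genes are not reported here and were left out of the lists and of the named genes, without replacement. The members and lists were chosen with earlier results of these data known. Alternatives were other pseudocounts, filters and scalings, fewer libraries, a replicate block and leaving out each replicate.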

Additional observations from a re-analysis of the deposited data

Results flagged for a closer look

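At E12.5 the sexes differed for 820 genes by the test of females against males in limma. Since the E11.5 libraries carry no sex label, a difference that was already present at E11.5 cannot be told apart from a change that differed between the sexes. The 820 genes are 6.53% of those tested. Of the genes chosen by the naming rule given above, 74 were called between E11.5 and E12.5 females. The 820 include 40 of these 74, 27 higher and 13 lower in females. Called genes named for other reasons, such as Stk31, Dmc1 and Tmem63a, are not among the 74. Some genes were named for their large sex difference, and both comparisons use the same female libraries, so these shares cannot be compared. The values below are log2 differences of females less males, each past an adjusted p of 0.05 over all genes tested.

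Among the genes higher in females, the difference was 5.91 for Phlda2, 5.00 for Id1, 4.26 for Calcoco2, 3.90 for Gata2, 3.56 for Slc22a18, 3.51 for Stra8 and 3.46 for Rec8. A second group followed with Prom1 at 2.83, Plagl1 at 2.79, Crabp2 at 2.61, Id2 at 2.49, Fut4 at 2.42, Cfc1 at 2.40, Tmem159 at 2.35, Msx1as at 2.30, Zglp1 at 2.29 and Ccnd1 at 2.06. The smallest were Id4 at 1.96, Axin2 at 1.89, Fgfr3 at 1.84, Larp1b at 1.76, Cdkn1c at 1.68, Zbtb34 at 1.51, Mxd4 at 1.37, Dusp9 at 1.35, Pcsk6 at 1.33 and Furin at 1.01.

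Lower in females were Lefty2 at -6.95, Lefty1 at -6.00, Tdgf1 at -2.25 and Pkdcc at -2.19. Smaller differences were found for Spryd4 at -1.9, Fblim1 at -1.67, Ccne2 at -1.56, Hmg20b at -1.56, Cdkn2b at -1.41, Slc2a1 at -1.35, Ildr1 at -1.35, Rps6kl1 at -1.30 and Piwil1 at -1.27.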

How the results depend on the processing

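Calls depend on 2 libraries per group, on a spread borrowed from other stages, and on a fold required on the log2(RPM + 1) scale. In the comparison of E12.5 females with E11.5, and in those of females with males and of males with E11.5, limma called 1066, 820 and 871 genes. With a pseudocount of 4 RPM the counts were 553, 466 and 470, and with a filter of 20 RPM females against males gave 539. Fitting only the 4 libraries compared left 1, 0 and 18 calls, with 3428, 2901 and 3263 genes at an unadjusted p below 0.05, since few degrees of freedom remain. Leaving out each library in turn gave 769 to 939, 505 to 726 and 595 to 646 calls; females against males fell lowest without female replicate 2 (505) and male replicate 2 (545). The share of higher genes among those called in females against E11.5 was 59.5%, 58.6% with median centring and 55.3% with quantile normalization (526 higher and 426 lower). In males against E11.5 the larger side turned from higher (447 against 424) to lower with quantile normalization (380 against 397) and with a pseudocount of 4 RPM (224 against 246).

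Of 74 named genes called in females against E11.5, 48 kept direction and call in every alternative that tested them other than the fit on 4 libraries (12 alternatives for 44 of them; the other 4 were not tested under the filter of 20 RPM), and 26 lost the call in at least 1. These 74 are the called genes chosen by the naming rule. Other called genes in the text, such as Stk31, Dmc1 and Tmem63a, were not followed gene by gene through the alternatives. Hesx1, not called (-0.27), was at 0.55 and -1.09 without E11.5 replicates 1 and 2 and at 0.27 without female replicate 1. Same-numbered libraries did not deviate together (correlations of 0.0087, 0.0027 and -0.026). The labels do not say whether such libraries share more than a number, and correlations near 0 cannot decide it. With the replicate block the counts were 1062, 810 and 868. The planned tests on reads with edgeR and DESeq2 were not run, because the values did not give whole reads for nearly all genes.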

Other observations

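Immediate early and stress genes gave 1 rise and 3 falls among 17 tested in E12.5 females against E11.5 (median -0.32). Over all genes 5.04% rose and 3.44% fell. Trib3, a stress-induced pseudokinase, was at 7.35 and 4.49 RPM and then 13.9 and 16.7, with 24.6 and 24 in males; without E11.5 replicate 2 or female replicate 2 it was no longer called (limma adjusted p = 0.145 and 0.092). Ier3 was at 18.9 and 17.3 RPM and then 3.82 and 7.06, and lost its call without female replicate 1 (0.08). Fosb and Ddit3 fell at levels under 8 RPM, and each lost its call without 2 of the 4 libraries (adjusted p between 0.126 and 0.175).

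Beside 5.04% of all genes that rose and 3.44% that fell since E11.5, 1 of 9 oocyte factors tested rose. This was Sohlh2, a helix-loop-helix factor of early germ cell differentiation, from 48.8 and 53.9 RPM to 116 and 136, with 108 and 101 in males. Figla, which switches on the egg coat genes, was at 0.525 and 0 RPM and then 3.13 and 0. Of 10 genes of antigen presentation and interferon response 1 fell, Oas1a, at levels under 3 RPM, and this call was lost without E11.5 replicate 1 (limma adjusted p = 0.256) or female replicate 2 (0.19). None of 10 Hox genes was called, and no Hox gene tested exceeded 2.36 RPM in the 4 libraries.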
